A study of Homo sapiens with 6 samples.

Results

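The genes described are the metalloproteinases that cut the extracellular matrix and cell-surface proteins, together with their tissue inhibitors, in U-87, an established human glioma cell line. They were chosen by symbol: every gene whose symbol starts with MMP, ADAM or ADAMTS followed by a digit, TIMP1 to TIMP4, and RECK, taken from array probe sets annotated to exactly 1 gene. This gave 67 of the 18417 genes measured: 22 MMPs, 23 ADAMs, 17 ADAMTS genes and 5 inhibitors. They were read by 69 probe sets, and for MMP16 and TIMP3, which had 2 each, the brighter was used. Of the 67 genes, 63 are protein-coding and 4 of the ADAMs are pseudogenes. MMP23A with MMP23B, and ADAM21P1 with ADAM21, share a probe set. These shared probe sets were left out, and ADAM21 was read by another of its own. MMP23A, MMP23B, ADAM7, ADAMTS7 and ADAMTS15 were not analysed here.

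The study hybridised total RNA to 6 Affymetrix gene-level arrays, 3 from U-87 cells labelled P68 knockdown and 3 from U-87 cells labelled P68 wild type. All cells were grown in DMEM with fetal bovine serum. Per the treatment note, the cells received siRNA to P68 or NC. The labels do not say which arrays received NC or how long after transfection RNA was taken. They also do not say whether arrays within a group stand for separate cultures, so a p-value here describes spread between arrays that may be technical only. The study's title ties P68, the RNA helicase encoded by DDX5, to growth and invasion of glioma cells through the phosphatase DUSP5, and the question here is which matrix-cutting enzymes these cells carried and whether they differed after the knockdown.

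MMPs are zinc-dependent enzymes, mostly secreted as inactive precursors, that cut collagens and other matrix proteins, and the membrane-type members sit on the cell surface, where they can also activate secreted MMPs. ADAMs are membrane-anchored relatives, many of which release growth factors and adhesion molecules from the cell surface, while ADAMTS enzymes are secreted and act on proteoglycans and procollagens. TIMPs block the active site of these enzymes, and RECK is a membrane-anchored inhibitor of several MMPs. In glioma, this system is known for its part in the spread of tumour cells through brain tissue.

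Signals are given on the log2 scale, where a difference of 1 is a 2-fold change. The array medians over all probe sets lay between 4.32 and 4.37, and pairs of arrays correlated with r = 0.979 to 0.986 within the knockdown, 0.987 to 0.990 within the wild type and 0.980 to 0.990 between the groups. DDX5 itself gave 9.47, 9.79 and 9.91 on the knockdown arrays, against 10.09, 10.25 and 10.30 on the wild-type arrays. All 3 knockdown arrays were lower, as in 4.15% of all genes. DDX5 was at 71.2% of the wild-type signal (95% confidence interval 58.4% to 86.9%), with a limma adjusted p of 0.902 over all genes. An exact permutation test (two-sided) gave p = 0.1 for it, the lowest p possible with 3 arrays per group. Of 8 glioma and mesenchymal markers of U-87, 6 lay above the olfactory receptor level defined in the next paragraph, among them VIM at 7.60 and LGALS1 at 6.77, and also FN1, just above it at 4.74. CD44, a surface receptor for hyaluronan that U-87 cells are known to carry, was not above it at 3.59, nor was CHI3L1 at 4.39. Markers of other cell types above that level numbered 1 of 6 for astrocytes, 3 of 6 for microglia and leukocytes, 2 of 6 for endothelium, 2 of 6 for neurons and 1 of 6 for fibroblasts and pericytes. Of the microglia and leukocyte markers, TYROBP at 6.18, ITGAM at 5.03 and CSF1R at 4.70 were above the level, and CD14 at 4.25, AIF1 at 2.84 and PTPRC at 2.74 were not.

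To say which members were expressed, each signal was set against the 361 olfactory receptor genes, a family that cultured glioma cells are known to leave silent. Their signals ran from 1.95 to 6.13 with a median of 3.08, and their 95th percentile, 4.68, was used as the level above which a gene was counted as having signal. No detection calls were used, and probe sets bind their targets with different strength, so the order of signals between genes is not an order of RNA amounts. By this measure 30 of the 67 members (44.8%) lay above the level and 37 did not, against 49.8% of all genes above it. The level is close to the signal of the median gene, 4.67, and with the 99th percentile of the olfactory receptors in its place, 5.45, 12 members remained above it. These were ADAM10, TIMP1, MMP17, MMP16, ADAM33, MMP11, ADAM11, TIMP3, ADAMTS2, ADAMTS8, ADAMTS10 and ADAMTS13. All other members named below as above the level pass at the 95th percentile only. The members nearest to the level were ADAMTS3 at 4.71 just above and MMP24 at 4.64 just below. Some markers of other cell types exceeded even 5.45, among them TYROBP at 6.18, the endothelial marker CLDN5 at 5.81 and the neuronal marker RBFOX3 at 5.76. CD44, which U-87 cells are known to carry, was at 3.59. A signal above the level is therefore not proof of expression, and a signal below it is not proof of absence.

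**Figure D1:**
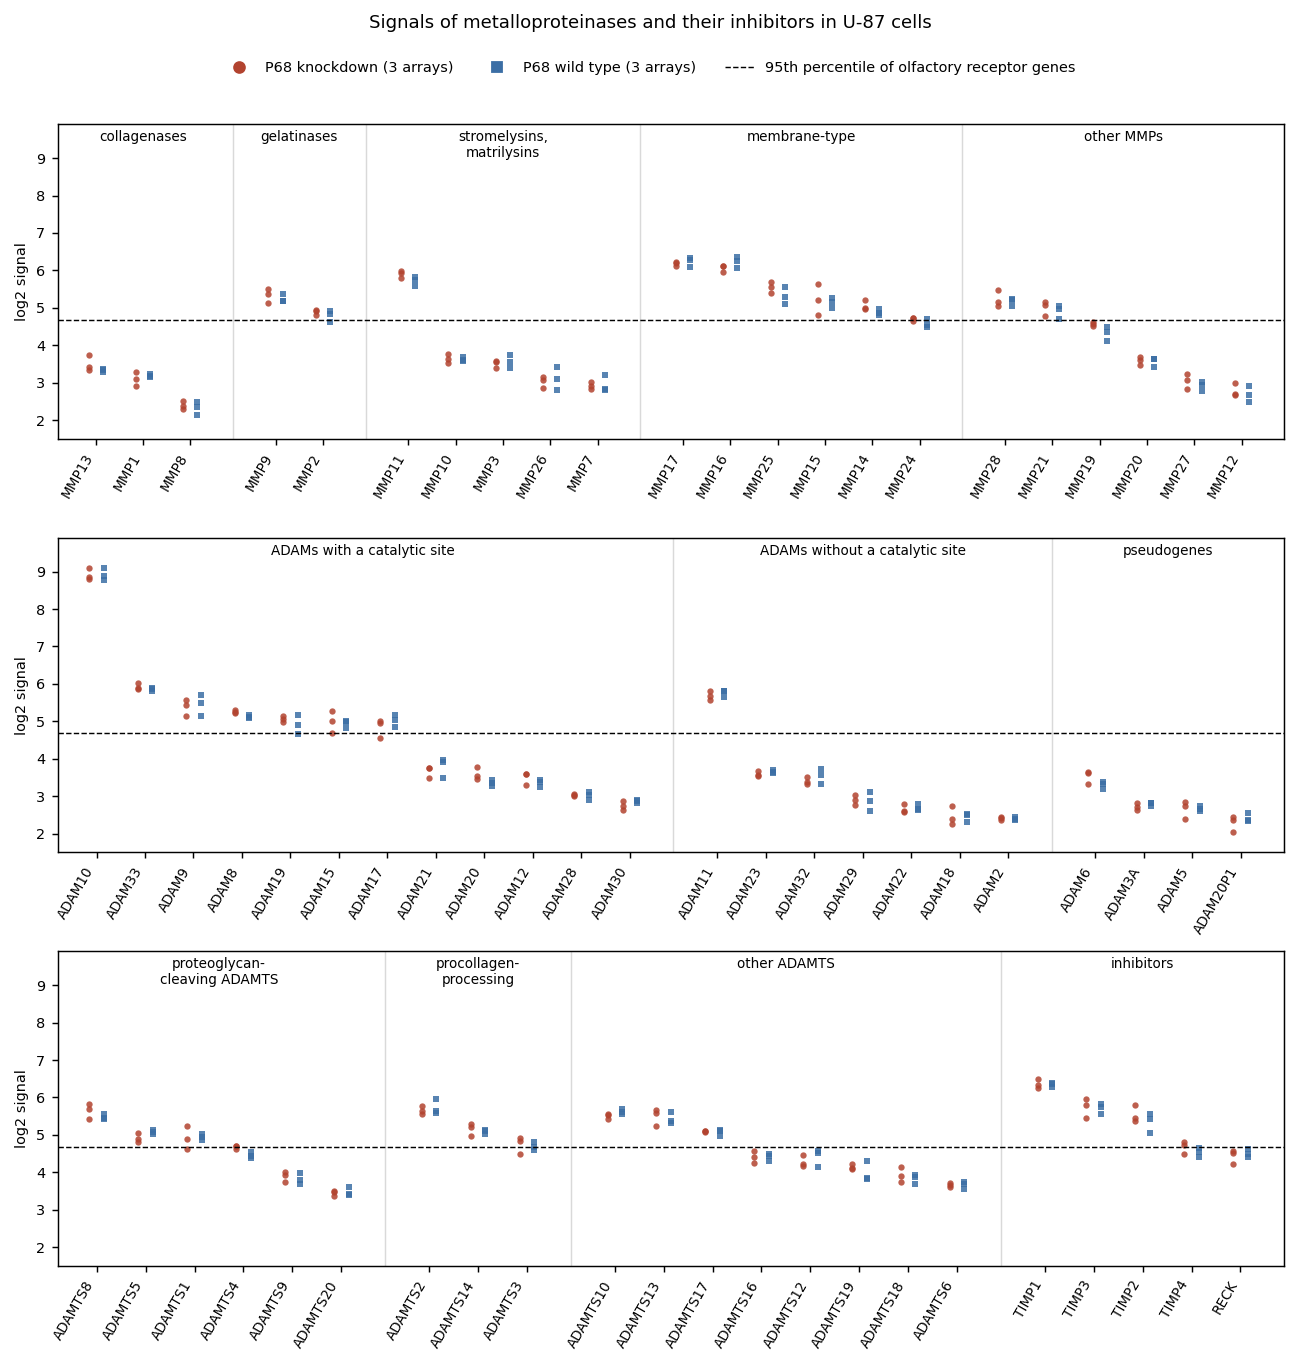
Log2 signals of the 67 genes, grouped by role and ordered by mean signal within each role. Circles are the 3 P68 knockdown arrays, squares the 3 P68 wild-type arrays, and the dashed line is the 95th percentile of 361 olfactory receptor genes (4.68). ADAM10 stands near 9, most other members lie between 2 and 6.5, and the symbols of both groups lie close together for each gene.

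ADAM10, the main sheddase of Notch, N-cadherin and the amyloid precursor protein, had the highest signal of the members. It gave 9.09, 8.85 and 8.81 in knockdown cells and 9.11, 8.79 and 8.89 in wild-type cells, brighter than 99.4% of all genes. The groups overlapped, and the difference of -0.01 ± 0.12 (SE) had a 95% confidence interval of -0.29 to 0.26. The value was 0.10 after repeated quantile normalization, 0.07 after cyclic loess, and with single arrays left out it was lowest without knockdown replicate 1 (-0.10) and highest without wild-type replicate 1 (0.08). ADAM17, which releases TNF and ligands of the EGF receptor, gave 5.0, 4.56 and 4.95 in knockdown cells, against 4.84, 5.04 and 5.18 in wild-type cells. Knockdown replicate 2 was the lowest of the 6 arrays for it and the groups overlapped, and the difference was -0.18 ± 0.14 (SE), or -0.05 without knockdown replicate 2. In all, 7 of the 12 ADAMs with a catalytic site lay above the olfactory receptor level: ADAM10, ADAM33, ADAM9, ADAM8, ADAM19, ADAM15 and ADAM17. ADAM33, an ADAM known from airway smooth muscle and fibroblasts, gave 6.02, 5.88 and 5.86 in knockdown cells and 5.90, 5.86 and 5.82 in wild-type cells. These 6 values span little of the scale, and the groups overlapped. Of the 7 measured ADAMs that lack a catalytic site, ADAM11 alone was above it, at 5.69 ± 0.12 in knockdown cells and 5.76 ± 0.09 in wild-type cells (SD, n = 3 each). The 6 others, including ADAM22 and ADAM23, neural adhesion proteins that bind LGI1, had mean signals of 2.40 to 3.62. The 4 pseudogenes had mean signals of 2.35 to 3.42.

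Among the membrane-type MMPs, 5 of 6 were above the level. MMP17 and MMP16 had mean signals of 6.20 and 6.15 and MMP14, the membrane-type enzyme that activates MMP2, had 4.97. The other probe set of MMP16 had a mean signal of 2.96, below the level, so MMP16 is counted here through its brighter probe set only. MMP17, anchored to the membrane through a lipid, averaged 6.18 ± 0.06 in knockdown cells and 6.23 ± 0.13 in wild-type cells (SD, n = 3 each). MMP14 gave 4.98, 5.21 and 4.99 in knockdown cells and 4.98, 4.86 and 4.81 in wild-type cells. Knockdown replicate 1 equalled the brightest wild-type array, and the other knockdown arrays stood above it, for a difference of 0.18 ± 0.11 (SE). Both gelatinases, which cut denatured collagen and basement membrane collagen, were also above the level. They lay below the 99th percentile of the olfactory receptors, 5.45, MMP2 with a mean of 4.84 and MMP9 with 5.29. MMP2 gave 4.93, 4.80 and 4.91 in knockdown cells and 4.63, 4.91 and 4.83 in wild-type cells, a narrow range in which the groups overlapped. MMP9 gave 5.36, 5.50 and 5.14 in knockdown cells and 5.37, 5.18 and 5.19 in wild-type cells, and here too the groups overlapped. The other members of the MMP family above the level were MMP11, MMP28 and MMP21. MMP11, a stromelysin by name that cuts few matrix proteins, gave 5.92, 5.80 and 5.99 in knockdown cells and 5.74, 5.83 and 5.59 in wild-type cells.

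The 3 secreted collagenases, MMP1, MMP8 and MMP13, which cut fibrillar collagens, were all below the level, as were the stromelysins MMP3 and MMP10 and the matrilysins MMP7 and MMP26. All 3 collagenases belong with MMP3, MMP7, MMP10, MMP12, MMP20 and MMP27 to a block of 9 neighbouring protein-coding genes on chromosome 11 (gene order from RefSeq, GRCh38.p14), and all 9 are members measured here. Their mean signals ran from 2.36 (MMP8) to 3.63 (MMP10), 0 of the 9 were above the level, and the highest value of any of the 9 on any array was 3.76. The differences between knockdown and wild type in this block ran from -0.10 to 0.17, with 6 above 0 and 3 below.

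Of the ADAMTS genes, 9 of 17 were above the level. These included all 3 enzymes that trim procollagens, ADAMTS2, ADAMTS14 and ADAMTS3. Of 6 measured enzymes that cut proteoglycans such as aggrecan, versican and brevican, ADAMTS8, ADAMTS5 and ADAMTS1 were above it. ADAMTS4, an aggrecanase that also cuts brevican of the brain matrix, was just below at a mean of 4.57, and ADAMTS9 and ADAMTS20 were at 3.86 and 3.46. ADAMTS10, ADAMTS13, which cuts von Willebrand factor, and ADAMTS17 were the others above it. ADAMTS2, which removes the N-terminal propeptide of fibrillar procollagens, gave 5.77, 5.55 and 5.65 in knockdown cells and 5.63, 5.58 and 5.95 in wild-type cells, so that wild-type replicate 3 was the brightest array and the groups overlapped. ADAMTS8 gave 5.69, 5.82 and 5.43 in knockdown cells and 5.42, 5.46 and 5.56 in wild-type cells. Knockdown replicates 1 and 2 stood above all wild-type arrays and knockdown replicate 3 did not. ADAMTS10 averaged 5.50 ± 0.07 in knockdown cells and 5.62 ± 0.06 in wild-type cells (SD, n = 3 each).

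Among the inhibitors, TIMP1, TIMP3 and TIMP2 were above the level and TIMP4 and RECK were not. TIMP1, a secreted inhibitor of most soluble MMPs, gave 6.48, 6.25 and 6.33 in knockdown cells and 6.35, 6.38 and 6.27 in wild-type cells. The groups overlapped, and the difference of 0.02 ± 0.10 (SE) became -0.04 with knockdown replicate 1 left out and 0.07 with knockdown replicate 2 left out. TIMP2, which blocks MMP2 and also takes part in its activation by MMP14, gave 5.81, 5.37 and 5.45 in knockdown cells and 5.56, 5.42 and 5.06 in wild-type cells. Knockdown replicate 1 was the highest array for it and wild-type replicate 3 the lowest, and the difference of 0.20 ± 0.16 (SE) became 0.05 with wild-type replicate 3 left out and 0.30 with wild-type replicate 1 left out. TIMP3, which binds to the matrix and also inhibits ADAM17 and aggrecanases, gave 5.45, 5.95 and 5.80 in knockdown cells and 5.56, 5.82 and 5.75 in wild-type cells. Its other probe set, with a lower mean signal of 4.81, had a difference of -0.12, against 0.02 for the brighter. RECK gave 4.21, 4.57 and 4.52 in knockdown cells and 4.49, 4.40 and 4.63 in wild-type cells. TIMP4 gave 4.49, 4.82 and 4.72 in knockdown cells and 4.40, 4.65 and 4.55 in wild-type cells. For TIMP3, RECK and TIMP4 as well, the groups overlapped.

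Members above the olfactory receptor level had more CG dinucleotides just before the gene start, at the median, than the other members. RefSeq promoter sequences (GRCh38.p14) were matched by gene identifier for 38 of the 67 members, and the 250 bases before the start were read. CG dinucleotides, which are dense in the promoters of many broadly expressed genes, numbered 23 at the median in the 17 members above the olfactory receptor level and 11 in the 21 that were not. Over all tested genes with a promoter the medians were 20 for the 7184 above the level and 14 for the 7052 others. The 5 matched genes of the chromosome 11 block had 0 to 3 CG dinucleotides and a G+C content of 32.8% to 41.6%. Of these 5, 4 held TATAAA on the gene's strand, and outside the block MMP21 and MMP26 held it, against 7.75% of the tested genes with a promoter and 6.80% of all 35114 promoters of this length. TGACTCA, the site bound by AP-1 factors, was searched on both strands with its reverse complement TGAGTCA. It was found in MMP7 alone of the 38 members and in 4.20% of all promoters. The 16 other matched members below the level had a median of 14.5 CG dinucleotides, so low CG content was not shared by all dim members. These are counts of letters and were not tested.

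The following 4 promoters are those of ADAM10 and TIMP1, which had the highest signals of the members, and of MMP7 and MMP10 in the chromosome 11 block. Each is printed 5′ to 3′ on the gene's strand and ends at the base before the start, with CG dinucleotides, TATAAA and TGAGTCA in capitals.
ADAM10, chr15:58749708-58749957, minus strand: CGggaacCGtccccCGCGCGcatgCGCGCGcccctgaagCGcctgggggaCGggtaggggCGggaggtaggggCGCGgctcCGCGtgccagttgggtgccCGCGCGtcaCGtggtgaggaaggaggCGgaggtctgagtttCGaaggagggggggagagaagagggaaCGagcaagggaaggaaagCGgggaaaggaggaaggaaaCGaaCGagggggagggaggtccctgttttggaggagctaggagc
TIMP1, chrX:47582186-47582435, plus strand: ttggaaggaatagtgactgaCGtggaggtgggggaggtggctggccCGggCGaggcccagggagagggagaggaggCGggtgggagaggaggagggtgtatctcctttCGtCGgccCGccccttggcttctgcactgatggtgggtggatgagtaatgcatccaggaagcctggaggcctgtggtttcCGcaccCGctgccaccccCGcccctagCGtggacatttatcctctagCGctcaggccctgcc
MMP7, chr11:102530748-102530997, minus strand: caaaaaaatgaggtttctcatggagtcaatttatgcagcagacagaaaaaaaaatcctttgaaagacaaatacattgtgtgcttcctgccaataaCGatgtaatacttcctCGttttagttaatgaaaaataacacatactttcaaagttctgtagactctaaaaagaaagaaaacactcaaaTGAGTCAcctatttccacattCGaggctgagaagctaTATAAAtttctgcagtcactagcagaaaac
MMP10, chr11:102780629-102780878, minus strand: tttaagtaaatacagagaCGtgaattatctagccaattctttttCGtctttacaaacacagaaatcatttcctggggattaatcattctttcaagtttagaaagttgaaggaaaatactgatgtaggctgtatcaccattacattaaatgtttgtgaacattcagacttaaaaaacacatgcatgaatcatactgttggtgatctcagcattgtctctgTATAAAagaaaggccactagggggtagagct
ADAM10 held 25 CG dinucleotides and TIMP1 held 12, and neither window held TATAAA. The count of TIMP1 lay near the median of 11 for members not above the level, and not near the 23 for those above it. MMP7 held 3, with TATAAA beginning 30 bases and TGAGTCA 67 bases before the start. MMP10 held 2, with TATAAA beginning 31 bases before the start.

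**Figure D2:**
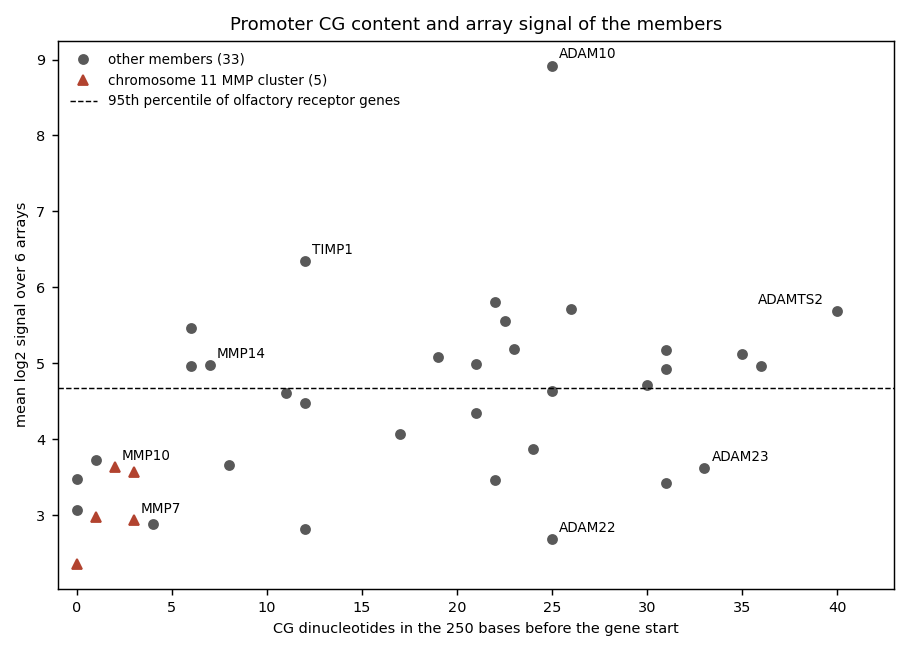
CG dinucleotides in the 250 bases before the gene start (horizontal) against the mean log2 signal over the 6 arrays (vertical) for the 38 members with a RefSeq promoter. Triangles are the 5 matched genes of the chromosome 11 block, which sit at 0 to 3 CG dinucleotides and below the dashed olfactory receptor level of 4.68, while ADAM22 and ADAM23 lie below it with 25 and 33.

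Knockdown and wild-type arrays were then compared for every gene with limma, and 0 of the 67 members passed an adjusted p of 0.05 (0% of all genes called). The smallest adjusted p of a member was 0.902. At an unadjusted p under 0.05 the count was also 0 of 67, where 5.09% of all genes were called. Leaving out an array changed this count: it was 3 without knockdown replicate 3, 3 without wild-type replicate 3 and 2 without wild-type replicate 1, always with higher signal in the knockdown. The shares of all genes called in these fits were 6.42%, 3.99% and 6.21%, so these counts of 67 lie near or below the background. Differences ran from -0.18 for ADAM17 to 0.25 for MMP19, and 66 of the 67 were under 0.25 in size. The 95% confidence intervals of all 67 members lay within 0.709-fold (ADAM17) and 1.46-fold (TIMP2) of the wild-type signal. With any 1 array left out the widest bounds were 0.654-fold and 1.6-fold. For the 37 members that were not above the olfactory receptor level, background in the signal would make a fold change look smaller than it was. The same holds for members above it within the range of the olfactory receptor signals, which reached 6.13, among them ADAM17 (4.93) and TIMP2 (5.45). These bounds therefore describe the signal and not the RNA.

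**Figure D3:**
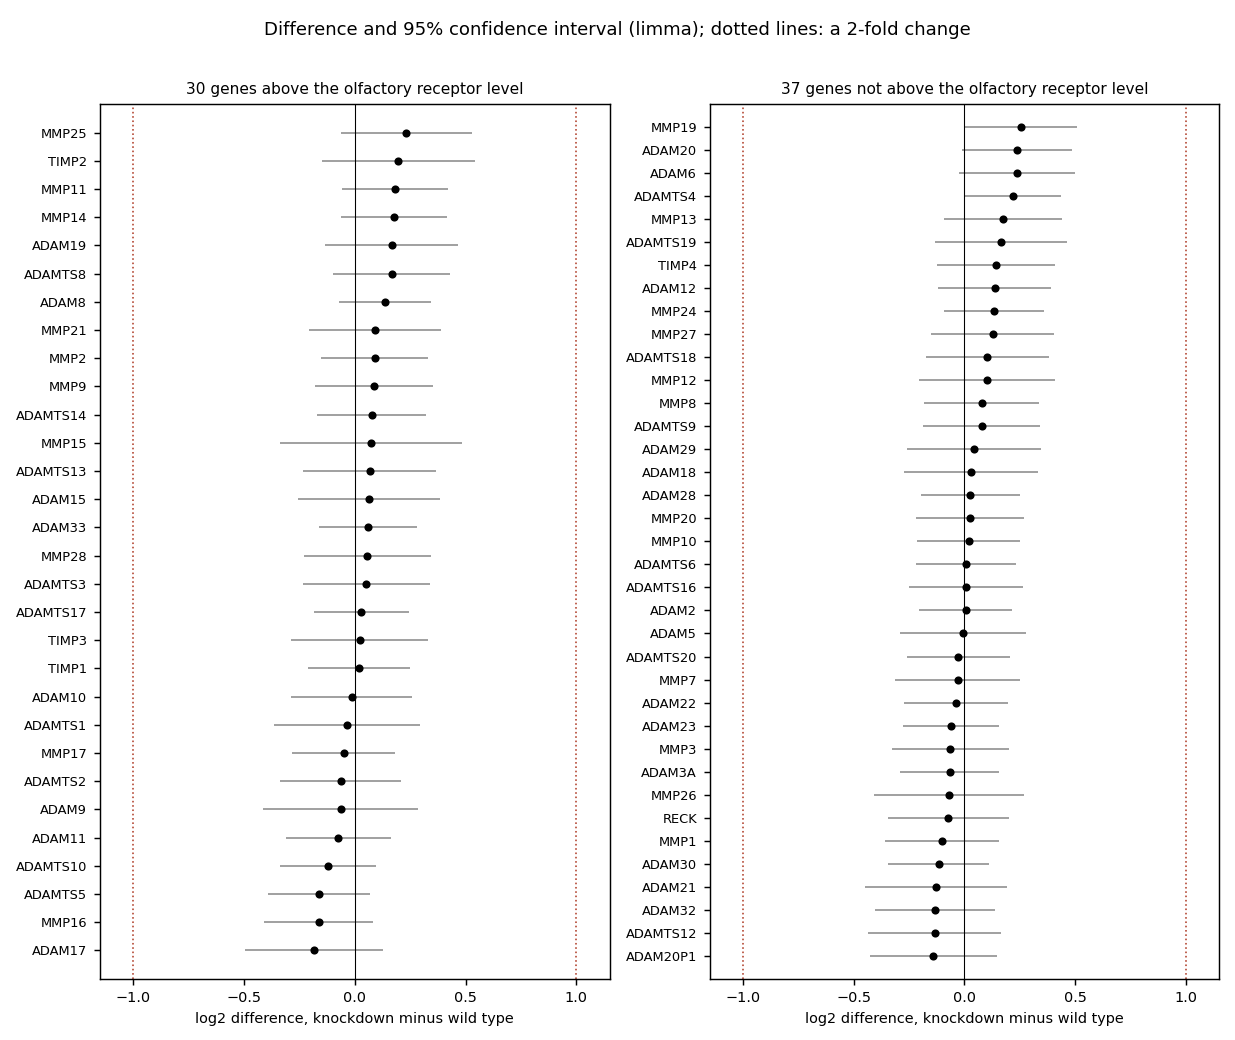
Log2 difference, P68 knockdown minus P68 wild type, for each member with its 95% confidence interval from limma, for the 30 members above the olfactory receptor level (left) and the 37 others (right). Every interval lies between the dotted lines that mark a 2-fold change, and all 67 include 0.

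Of the 67 members, 42 (62.7%) had a difference above 0 and 25 below, with a median of 0.03, where 52.5% of all genes lay above 0 with a median of 0.01. The MMPs had 16 of 22 above 0 (median 0.08), the ADAMs 11 of 23 (median -0.007), the ADAMTS genes 11 of 17 (median 0.03) and the inhibitors 4 of 5 (median 0.02). The olfactory receptor genes had 59.8% above 0 and a median of 0.03. Among the 30 members above the level, 20 (66.7%) lay above 0 with a median of 0.06. Over all 9175 genes above the level, 50.9% lay above 0, with a median of 0.003. The median of the 67 members became 0.01 with each array centred on its median, a step that shifted the median of all genes to -0.007. It was 0.01 without knockdown replicate 2, the lowest value with any array left out, and 0.05 without wild-type replicate 2, the highest. Knockdown replicate 2 was the brightest of the 6 arrays for 11 of the 30 members above the level, and lay 0.05 above the gene's mean at the median of these members and 0.02 above it over all genes.

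In 4 members all 3 knockdown arrays lay above all 3 wild-type arrays, and in 0 members all lay below. Over all genes these shares were 5.98% above and 4.15% below, so the members' count of 4 in 67 lies close to the background for higher values, and neither count is a result about the members. In an exact permutation test (two-sided) each of the 4 gave p = 0.1, the lowest p possible with 3 arrays per group. MMP19, an MMP of basement membrane and cartilage proteins, gave 4.57, 4.51 and 4.63 in knockdown cells and 4.12, 4.35 and 4.48 in wild-type cells, a difference of 0.25 ± 0.12 (SE) at an unadjusted limma p of 0.0518. ADAMTS4 gave 4.62, 4.71 and 4.69 in knockdown cells and 4.43, 4.39 and 4.55 in wild-type cells, a difference of 0.22 ± 0.10 (SE). Their narrowest gaps between the groups were those to wild-type replicate 3, the brightest wild-type array for both. ADAM8, a sheddase of leukocytes and glioma cells, gave 5.22, 5.30 and 5.26 in knockdown cells and 5.16, 5.10 and 5.11 in wild-type cells, and its difference of 0.14 ± 0.09 (SE) was the only one of the 4 in a gene above the olfactory receptor level. ADAM20, known from the testis, gave 3.55, 3.77 and 3.45 in knockdown cells and 3.42, 3.28 and 3.36 in wild-type cells. MMP19, ADAM8 and ADAM20 were named after their values were seen.

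**Figure D4:**
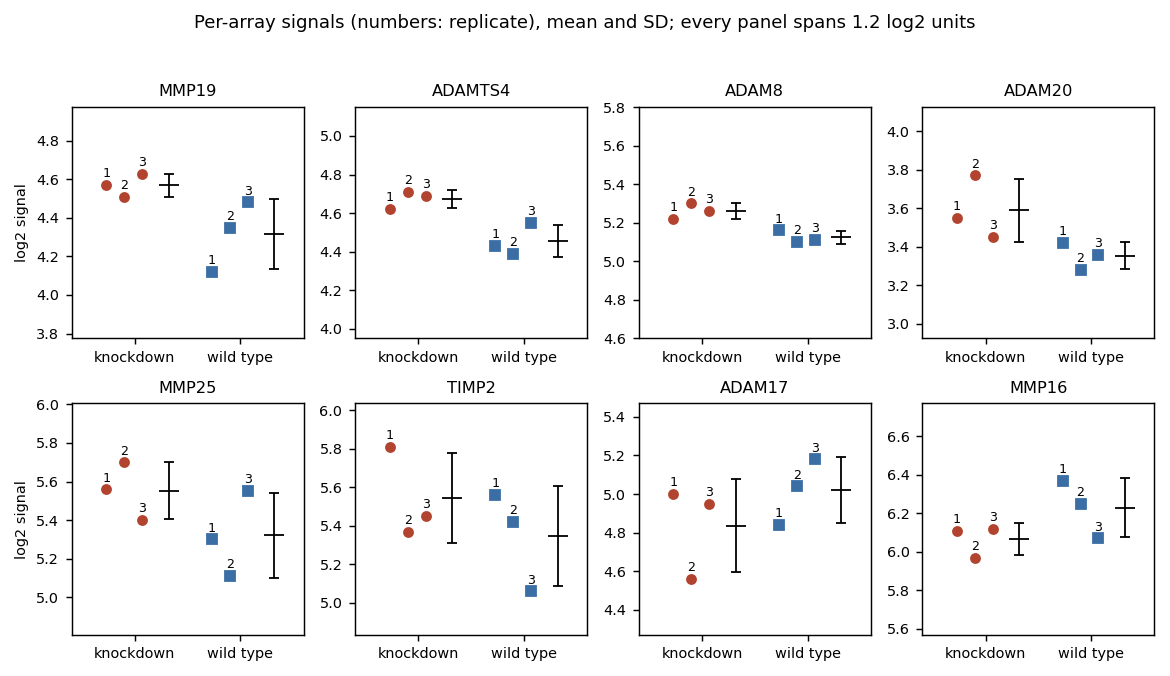
Log2 signals on each array for the 4 genes whose groups did not overlap (top row) and for MMP25 and TIMP2, with the most positive differences above the olfactory receptor level, and ADAM17 and MMP16, with the most negative (bottom row). Knockdown is left of wild type in each panel, digits give the replicate, and the bar with whiskers is the mean and SD of 3 arrays. The top row shows gaps narrower than 0.1 log2 units between the groups for each gene, and the bottom row shows groups that overlap.

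Among members above the level, the most positive differences were those of MMP25, TIMP2, MMP11, MMP14, ADAM19 and ADAMTS8. MMP25, a membrane-type MMP of leukocytes, gave 5.56, 5.70 and 5.40 in knockdown cells and 5.30, 5.11 and 5.55 in wild-type cells, a difference of 0.23 ± 0.13 (SE) that was 0.13 with wild-type replicate 2 left out and 0.35 with wild-type replicate 3 left out. Wild-type replicate 3 was the array through which the groups overlapped. ADAM19, which can shed neuregulins, averaged 5.07 ± 0.08 in knockdown cells and 4.90 ± 0.26 in wild-type cells (SD, n = 3 each), and its difference of 0.17 became 0.04 with wild-type replicate 3 left out and 0.30 with wild-type replicate 1 left out. The most negative differences were those of ADAM17, MMP16, ADAMTS5, ADAMTS10, ADAM11 and ADAM9, the last level with ADAMTS2. MMP16, a membrane-type MMP expressed in brain, gave 6.11, 5.97 and 6.12 in knockdown cells and 6.37, 6.25 and 6.07 in wild-type cells, a difference of -0.16 ± 0.11 (SE). Its other probe set had a mean signal of 2.96 and a difference of 0.20, and the mean of both probe sets gave 0.02. ADAMTS5, an aggrecanase, gave 5.04, 4.81 and 4.90 in knockdown cells and 5.02, 5.13 and 5.08 in wild-type cells, a difference of -0.16 ± 0.10 (SE). Only knockdown replicate 1 overlapped the wild-type arrays for it. ADAMTS1, ADAMTS2 and ADAM9 had differences of -0.03, -0.06 and -0.06, and each had the opposite sign with some array left out, at most 0.12 for ADAMTS1 without knockdown replicate 1, 0.05 for ADAMTS2 without wild-type replicate 3 and 0.07 for ADAM9 without wild-type replicate 2.

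Genes that activate, escort, dock or are cut by these enzymes were compared in 7 lists, and 0 genes of these lists passed an adjusted p of 0.05. The counts of differences above 0 in these lists stand beside 52.5% over all genes, with a median of 0.01. Of 8 measured proprotein convertases and plasmin system genes, 3 lay above 0 and 4 below, and the convertase FURIN, which removes the prodomain of membrane-type MMPs and ADAMs, averaged 6.31 ± 0.17 in knockdown cells and 6.34 ± 0.20 in wild-type cells (SD, n = 3 each). PLAU, the urokinase whose product plasmin can activate MMPs, gave 5.30, 5.35 and 5.21 in knockdown cells and 4.93, 4.99 and 5.18 in wild-type cells. Its groups did not overlap, and the difference was 0.25 ± 0.11 (SE), the largest of that list. By limma it had an unadjusted p of 0.0382 and an adjusted p of 0.902. Over all genes, 5.98% had all 3 knockdown arrays above the wild type and 5.09% had an unadjusted limma p under 0.05, so PLAU does not stand out by either. Of 9 escorts of ADAM10 and ADAM17, all of them above the olfactory receptor level, 7 lay above 0 (median 0.07). TSPAN5, a tetraspanin that carries ADAM10 to the surface, averaged 7.15 ± 0.06 in knockdown cells and 7.06 ± 0.27 in wild-type cells (SD, n = 3 each), and TSPAN10 had the largest difference of the list, 0.19 ± 0.13 (SE).

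Of 9 docking, clearance and induction genes, 7 lay above 0 (median 0.05), led by LCN2, a lipocalin that binds MMP9, at 0.27 ± 0.13 (SE). For LCN2 all knockdown arrays lay above the wild type, as in 5.98% of all genes. Knockdown replicate 2 was its highest array at 5.50, and the difference was 0.11 without that array. Of 8 other inhibitors and enhancers, 4 lay above 0 and 4 below (median 0.02), and SPOCK1, a testican proteoglycan that can block membrane-type MMPs, gave 4.72, 4.75 and 4.22 in knockdown cells and 4.43, 4.11 and 4.08 in wild-type cells. Its groups overlapped through knockdown replicate 3, it was not above the olfactory receptor level, and its difference was 0.36 ± 0.16 (SE). The 5 ADAMTS-like genes, relatives without a protease domain, had a median of 0.05, with ADAMTSL5 at 0.13 ± 0.14 (SE). ADAMTSL3, at 0.11 ± 0.10 (SE), also had all knockdown arrays above the wild type, and was named after its values were seen.

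Of 15 membrane proteins that these enzymes release, 9 lay above 0 and 6 below (median 0.07). HBEGF, an EGF receptor ligand released by ADAM17, gave 4.87, 4.52 and 4.56 in knockdown cells and 4.41, 4.28 and 4.43 in wild-type cells. Its 3 knockdown arrays were all above the wild type, as in 5.98% of all genes. The difference was 0.28 ± 0.12 (SE) with an adjusted p of 0.902 by limma, and the mean signal of 4.51 was not above the olfactory receptor level. Of 10 matrix substrates, 7 lay above 0 and 3 below (median 0.07), led by the brain proteoglycan NCAN at 0.30 ± 0.19 (SE), or 0.07 without knockdown replicate 2. Of the 4 collagen genes in that list, COL1A1, COL3A1 and COL4A1 had all 3 knockdown arrays above the wild type, with differences of 0.18, 0.19 and 0.10, where 5.98% of all genes had such a gap. COL4A2 gave 5.58, 6.06 and 5.59 in knockdown cells and 5.63, 5.75 and 5.71 in wild-type cells, so its groups overlapped, with a difference of 0.05. FN1, the fibronectin gene, had all 3 knockdown arrays below the wild type, with a difference of -0.21, where 4.15% of all genes had such a gap. The collagen genes and FN1 were named after their values were seen, and their adjusted p-values were 0.902 to 0.974.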

How the data were processed

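Gene expression was measured on 6 arrays, and the deposited table holds log2 signals made by RMA, per the submitters' processing notes, in 1 column per array. RMA equalises signal distributions over arrays, so it hides any shift common to most genes. For its software, version and genome build, the sources used here give nothing. The table held 29096 probe sets and 0 missing values, and the platform annotation gave 1 gene symbol to 19460 of them, several to 1754 and none to 7882. All 67 member symbols matched RefSeq (GRCh38.p14) by gene identifier, and coordinates are given for the printed RefSeq promoters only. Each of 18417 genes was represented by its brightest probe set, by mean signal. Groups were compared in R 4.3.3 by limma 3.58.1, two-sided (lmFit, eBayes) and with no filter, adjusted by Benjamini-Hochberg over all genes at 0.05. The fit was first tested on simulated data with independent noise. The simulated differences were larger than those of any member, so that test says nothing on changes of the members' size. Summaries used Python 3.11.15.

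The members and gene lists were chosen with earlier results of these data known. Genes named are DDX5, 13 members chosen for their roles (TIMP1 to TIMP4, RECK, MMP2, MMP9, MMP14, ADAM10, ADAM17, ADAMTS1, ADAMTS4 and ADAMTS5), the 10 brightest members, the 6 most positive and 6 most negative differences above the olfactory receptor level, members with an unadjusted p under 0.05, and the largest difference in each of 7 pathway lists. Other genes were named after their values were seen. The number of arrays limits precision, with a median standard error of 0.119 for members. No array was a copy of another (smallest SD of a difference between arrays 0.217). Alternatives were array weights, centring, cyclic loess, repeated quantile normalization, a replicate block, omission of each array or of the dimmest 40% of genes, averaging of probe sets, and a robust fit with an intensity trend.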

Additional observations from a re-analysis of the deposited data

How the results depend on the processing

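Under the 14 other fits tried, 0 members passed the adjusted threshold, also when only protein-coding members or members above the olfactory receptor level were counted. The count of members higher at an unadjusted p under 0.05, 0 as reported, was 1 with the dimmest genes left out, 1 with the replicate block, and ran from 0 to 3 with single arrays left out, and the count of those lower was 0 throughout. The shares of all genes called at that p, in either direction, were 5.13% with the dimmest genes left out, 6.24% with the replicate block and 2.95% to 7.35% with single arrays left out. The median difference of the members, 0.03, was 0.013 with arrays centred, 0.06 with the dimmest genes left out, 0.058 over members above the olfactory receptor level, and 0.012 to 0.052 with single arrays left out. The number of members above that level, 30, was 12 with the 99th percentile and 29 with probe sets averaged. It was 25 when all 6 arrays had to lie above the level. The difference of DDX5 ran from -0.583 to -0.363 with single arrays left out and stayed above an adjusted p of 0.05 in every fit. Of 31 named genes other than DDX5, 23 kept their sign in every fit. The mean over probe sets gave -0.047 for TIMP3 and 0.02 for MMP16, and ADAM10 gave 0.102 after repeated quantile normalization and 0.068 after cyclic loess. With single arrays left out, differences ran from -0.043 to 0.072 for TIMP1, -0.085 to 0.165 for TIMP3, -0.142 to 0.038 for RECK, -0.1 to 0.077 for ADAM10, -0.193 to 0.117 for ADAMTS1, -0.133 to 0.052 for ADAMTS2 and -0.22 to 0.065 for ADAM9. The cause of these changes was not tested. Same-numbered knockdown and wild-type arrays deviated together with r = 0.268, -0.027 and 0.125, and different-numbered ones with r from -0.251 to 0.17. These values do not settle whether the numbers mark pairs. The labels do not say that they mark a shared culture or day, so they were not taken as pairs. The replicate block called 1 member (MMP19, named after its value was seen) at an unadjusted p under 0.05 and 0 after adjustment. Signal over background limits the 37 members below the olfactory receptor level, and also members above it whose signals lie within the range of the olfactory receptor genes.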
